A study of Homo sapiens with 40 samples.

Results

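The full-length mRNA sequencing protocols G&T and Takara were compared gene by gene in single cells of T47D, an established human line from a luminal breast cancer. The comparison used the cells that passed 4 quality thresholds (genes detected, library size, mitochondrial share and spike-in share), which kept 11 of 13 deposited G&T cells and 11 of 13 deposited Takara cells. These were 22 of the 40 cells in the series, whose remaining protocol, NEB, was not used here. All cells were T47D cells at passage 10, sorted as positive for EpCAM and for CD49f (integrin alpha 6), with no drug or genetic treatment in either group. Whether 1 culture and 1 day served both protocols is not given in the sources used here.

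In the G&T cells, lysis was in RLT Plus buffer and polyadenylated RNA was pulled out on oligo-dT beads, which separates it from genomic DNA, before reverse transcription on the beads by the SMART-seq2 chemistry. In the Takara cells, the SMART-seq HT kit joined reverse transcription and cDNA amplification in 1 step in the lysate, with no bead capture. Both used template switching with a locked nucleic acid oligo, 20 cycles of PCR and Nextera XT libraries. Each protocol had 1 plate and 1 sequencing run, so that protocol, plate and run cannot be told apart. The 11 cells of a protocol were therefore treated as 1 sample, and values across cells are given as ranges without a test.

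In both chemistries an oligo-dT primer starts reverse transcription in the poly(A) tail, and the enzyme adds a few untemplated bases when it reaches the end of the RNA. The template-switching oligo pairs with those bases and supplies the second primer site, so that in principle whole transcripts are amplified. Transcripts differ in how readily they are copied to the end and amplified, and RNA without a poly(A) tail is primed only where it holds a run of A. T47D cells carry estrogen and progesterone receptors and the transcription factors of luminal breast epithelium, and they carry little or none of the basal keratins KRT5 and KRT14.

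Reads on genes ranged from 658154 to 1166630 per G&T cell (863661 on average) and from 818512 to 1287910 per Takara cell (1065150 on average). Of all reads, 5.46% to 23.2% lay on no annotated feature in G&T cells and 1.46% to 7.27% in Takara cells, and ERCC spike-ins took 1.37% to 2.75% and 0.538% to 1.33% of the library. Luminal markers were present in every cell of both protocols, with KRT8, KRT18, KRT19, GATA3 and ESR1 read in 11 of 11 cells each. Of the 14 immune and endothelial markers, 6 had any read and none reached the abundance floor used below. Of 4 basal markers, KRT5 and KRT14 each had reads in 1 G&T cell and no Takara cell, and TP63 in 2 and 1. The fourth, ACTA2, smooth muscle actin, had at most 7.60 CPM in a G&T cell and between 2.80 and 141 CPM in each Takara cell. KRT15, a keratin outside these 4 markers, had up to 48.7 CPM in a G&T cell.

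The G&T cells of replicates 8, 10 and 13 stood apart from the other 8. Transcripts of up to 1000 bases took 24.0% to 33.9% of their reads on nuclear protein-coding genes, against 13.04% to 17.7% in the other G&T cells and 10.8% to 14.2% in Takara cells. They also had the fewest genes among G&T cells (9541 to 10831, against 11102 to 12794) and the largest ERCC shares (2.16% to 2.75%, against 1.37% to 2.11%). Values that rest on them are given below with and without these cells, a comparison chosen after seeing the data.

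Levels were expressed as CPM, the reads of a gene for every 1000000 reads on all genes, per cell and for the 11 cells pooled. The ratio of a gene is log2 of its pooled G&T level over its pooled Takara level after adding 1 CPM to each, and 8397 genes with a mean pooled level of at least 10 CPM were compared. Of these, 1453 (17.3%) were at least 2-fold higher in G&T, 1696 (20.2%) were at least 2-fold higher in Takara, and 5248 (62.5%) lay within 2-fold. The median ratio was -0.12, with quartiles at -0.86 and 0.69, and the Spearman correlation of the pooled levels across genes was 0.74, where genes are not independent. Scaled to the ERCC reads in place of the reads on genes, the median ratio shifted to -1.07, so every ratio here is relative to the other genes of the same library, and a ratio between 0 and about 1 turned negative on the ERCC scale. Cells did not overlap at all for few genes. Every G&T cell was above every Takara cell for 94 genes (1.12%), and every Takara cell above every G&T cell for 185 (2.20%).

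**Figure D1:**
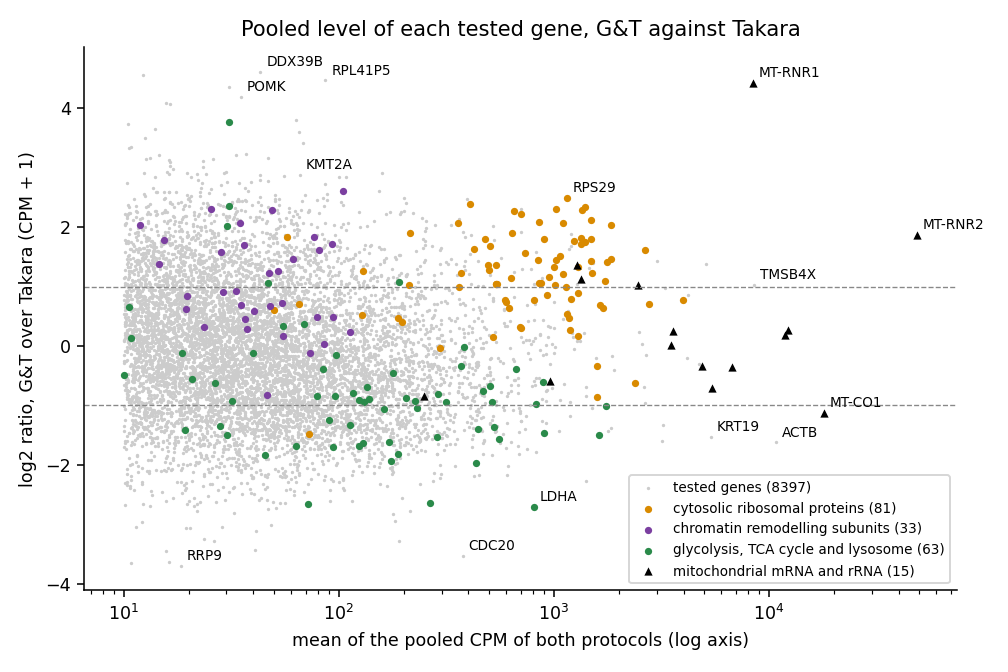
Ratio of each of 8397 genes (log2 of pooled G&T over pooled Takara CPM, each plus 1 CPM, y axis) against its mean pooled level (CPM, log axis), with dashed lines at 2-fold and colours for ribosomal proteins, chromatin remodelling subunits, the joined glycolysis, TCA cycle and lysosome lists, and mitochondrial mRNA and rRNA (triangles). Genes lie on both sides at every level, 1453 above the upper line and 1696 below the lower one.

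Among protein-coding genes whose cells did not overlap, the 10 with the largest ratios toward G&T were POMK, MIX23, AP1S1, CDK12, ACTN4, SYVN1, CANT1, FAM98B, KMT2A and CEP350, with ratios from 4.19 down to 2.84. POMK, a kinase that acts on a sugar of dystroglycan, had a lowest, median and highest cell of 13.6, 77.4 and 135 CPM in G&T and of 0, 0.808 and 11.6 CPM in Takara. Its pooled level was 24.6-fold higher in G&T (95% Poisson interval 17.3 to 36.3, which like all such intervals here covers counting error only). CDK12, a kinase of elongating RNA polymerase II, had 50.1, 111 and 217 CPM in G&T and 1.13, 7.27 and 25.1 CPM in Takara, a 13.4-fold difference (10.98 to 16.5). For ACTN4, an actin-crosslinking protein, the values were 38.8, 109 and 291 CPM against 3.15, 12.1 and 17.1 CPM. The lowest G&T cell thus held more of each of these genes than the highest Takara cell. MIX23, a small mitochondrial protein, had 22.3, 54.1 and 314 CPM in G&T and 1.55, 4.83 and 18.6 CPM in Takara, and its 3 highest cells were the 3 that stood apart (187 to 314 CPM). Without them its ratio was 2.56 in place of 3.80.

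Toward Takara, the genes named by the same rule were NECAP1, SLC25A20, TRIM32, ALKBH1, MOGS, MRPL49, COPG1, LDHA and EEF2KMT, with ratios from -3.45 to -2.70. LDHA, the lactate dehydrogenase subunit of glycolytic cells, had 43.6, 180 and 501.1 CPM in G&T and 981, 1346 and 1994 CPM in Takara. Its pooled level was 6.54-fold higher in Takara (6.25 to 6.86). COPG1, a subunit of the COPI coat of Golgi vesicles, had 17.4, 38.6 and 109 CPM against 207, 346 and 566 CPM, a 6.95-fold difference (6.34 to 7.63). SLC25A20, the carnitine carrier of the inner mitochondrial membrane, was read in 7 of 11 G&T cells at up to 25.1 CPM and in all Takara cells at 36.4 to 173 CPM. No Takara cell was as low as the highest G&T cell for any of these genes. SYVN1 and MRPL49 lie on opposite strands and overlap (chromosome 11, 65121780 to 65134532 and 65122183 to 65127371), and they were named in opposite directions, at 3.15 and -2.82. Whether the counting used strand is not given in the sources used here, so reads from an overlapping pair cannot be told apart and both values are uncertain. Among the other genes named in this way, POMK, ACTN4, KMT2A, CEP350, NECAP1, MOGS, COPG1 and EEF2KMT share exon bases with another annotated gene, and so do ACTA2, ARF1, ATP5F1E, BPTF, CTSZ, ENO1, ESR1, GOLGA4, HDAC3, ITGA6, KRT8 and KRT18 (each other), MED16, P4HB, PAQR7, PGR, PSME4, RPL39, RPS29, RPS3, RTN2, SMARCB1 and SNHG5, so these counts are uncertain too.

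Transcript length ordered the ratios in both directions. Nuclear protein-coding genes of up to 500 bases had a median ratio of 0.98 (52 genes, by the length of the canonical transcript), genes of 1501 to 2000 bases -0.87 (857 genes), and genes of over 10000 bases 1.05 (348 genes). Between these the medians ran through 0.04, -0.63, -0.72, -0.52, -0.22, 0.15, 0.49 and 0.86 for 501 to 1000, 1001 to 1500, 2001 to 2500, 2501 to 3000, 3001 to 4000, 4001 to 5000, 5001 to 7000 and 7001 to 10000 bases. Of the genes over 10000 bases, 52.6% were at least 2-fold higher in G&T and 3.45% in Takara, while of those of 1501 to 2000 bases the shares were 3.97% and 42.4%. Across genes the Spearman correlation of ratio and length was -0.37 up to 2000 bases (2037 genes) and 0.47 above it (6090 genes).

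The rise at the short end rested largely on the 3 G&T cells that stood apart. Without them the median of genes up to 500 bases was 0.10 in place of 0.98, and that of 501 to 1000 bases was -0.26. The low values in the middle and the rise at the long end remained, at -0.75 for 1501 to 2000 bases and 1.24 for over 10000 bases. On the ERCC scale the medians of genes up to 500 bases and of genes over 7000 bases fell to just under 0 (-0.0036 and -0.04), and that of 1501 to 2500 bases to -1.75, so the order of the length classes stayed but the sign at both ends did not.

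**Figure D2:**
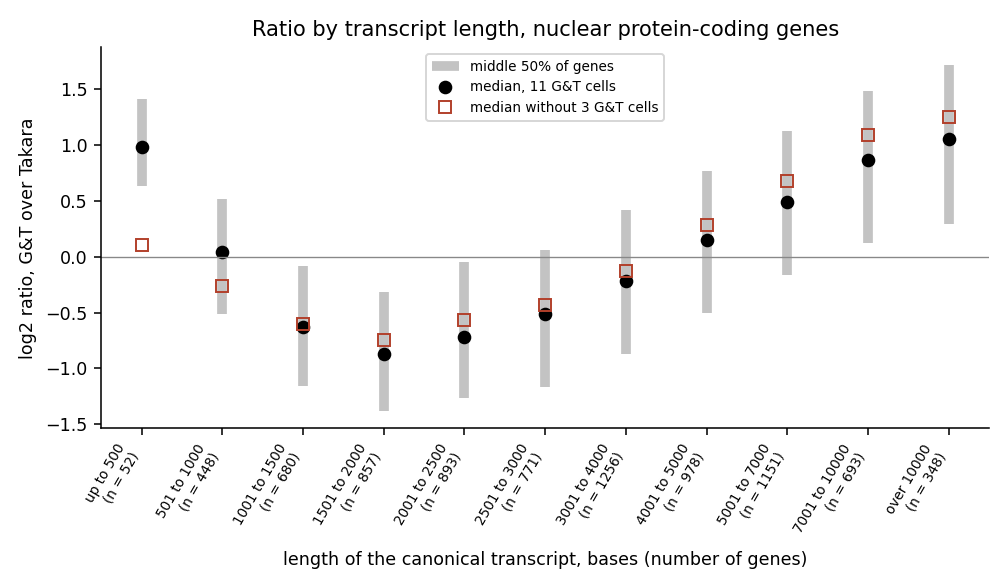
Median log2 ratio of G&T over Takara (y axis) by transcript length class in bases (x axis) for nuclear protein-coding genes, with all 11 G&T cells (circles) and without the 3 that stood apart (squares), where circles and squares are medians over the genes of the class and grey bars span the middle 50% of genes with all cells. The circles fall to -0.87 at 1501 to 2000 bases and climb to 1.05 above 10000 bases, and the first class drops from 0.98 to 0.10 without the 3 cells.

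The same pattern was seen in single cells as a share of reads. Transcripts of 1001 to 3000 bases took 41.9% ± 2.18 (SD, n = 11 cells) of nuclear protein-coding reads in G&T and 55.6% ± 0.748 in Takara, and the ranges of 38.4% to 45.6% and 54.0% to 57.1% did not overlap. Transcripts over 5000 bases took 19.6% ± 4.17 and 12.4% ± 0.519. The G&T range here was 12.7% to 24.7% and the Takara range 11.5% to 13.3%, and the cells that overlapped were among the 3 that stood apart (12.7% to 16.6%, against 18.6% to 24.7% in the other 8). For 3001 to 5000 bases the shares were 19.5% ± 2.65 and 19.2% ± 0.667, with 14.8% to 17.7% in the 3 cells, 19.1% to 22.1% in the other 8 G&T cells and 18.1% to 20.3% in Takara cells.

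**Figure D3:**
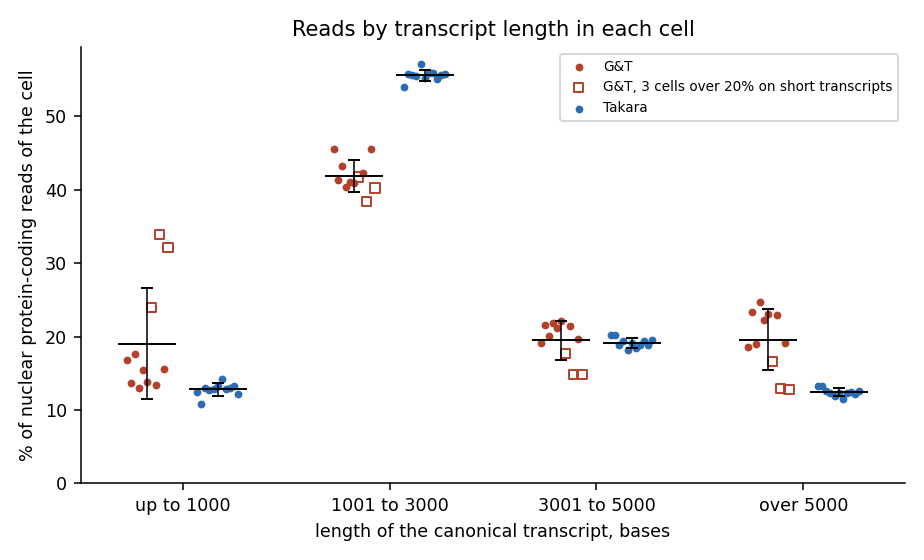
Percent of each cell's nuclear protein-coding reads on transcripts of 4 length classes (y axis), 1 point per cell, 11 G&T and 11 Takara cells, with horizontal lines at the mean, error bars of 1 SD and open squares for the 3 G&T cells that stood apart. Takara cells lie close together, all above the G&T cells at 1001 to 3000 bases, and 3 G&T cells lie far above the rest at up to 1000 bases.

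Other sequence features moved with the ratio as well, and some of that remained among transcripts of like length. Among genes of 1501 to 3000 bases, those with a GC content of up to 45% had a median ratio of -0.46 (820 genes) and those over 55% of -0.93 (913 genes), but above 5000 bases the medians were 0.69 and 0.74. Genes with a longest run of A of up to 5 bases had medians of -0.95 at 1501 to 3000 bases (1104 genes) and 0.44 above 5000 bases (139 genes). With a run of over 9 bases the medians were -0.24 (259 genes) and 0.69 (1048 genes). Length, base composition and A runs vary together across transcripts (median GC was 57.1% and 45.7% in the low and high A-run groups of 1501 to 3000 bases), and their separate parts were not tested.

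Gene families and pathways were described by 46 lists, of which 44 had genes above the abundance floor. The highest median ratios belonged to the cytosolic ribosomal proteins (1.20), the chromatin remodelling subunits (0.91), the luminal transcription factors and receptors (0.79), the small nucleolar RNA host genes (0.78) and the ubiquitin-specific proteases (0.74). On the ERCC scale the ribosomal proteins stayed above 0 (0.21) and the other 4 fell to between -0.05 and -0.19. Among lists with at least 8 members compared, the lowest medians belonged to lysosomal proteins (-0.94), enzymes of glycolysis and the TCA cycle (-0.89), keratins and the tubulins and actins (both -0.80) and Golgi vesicle transport (-0.70).

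**Figure D4:**
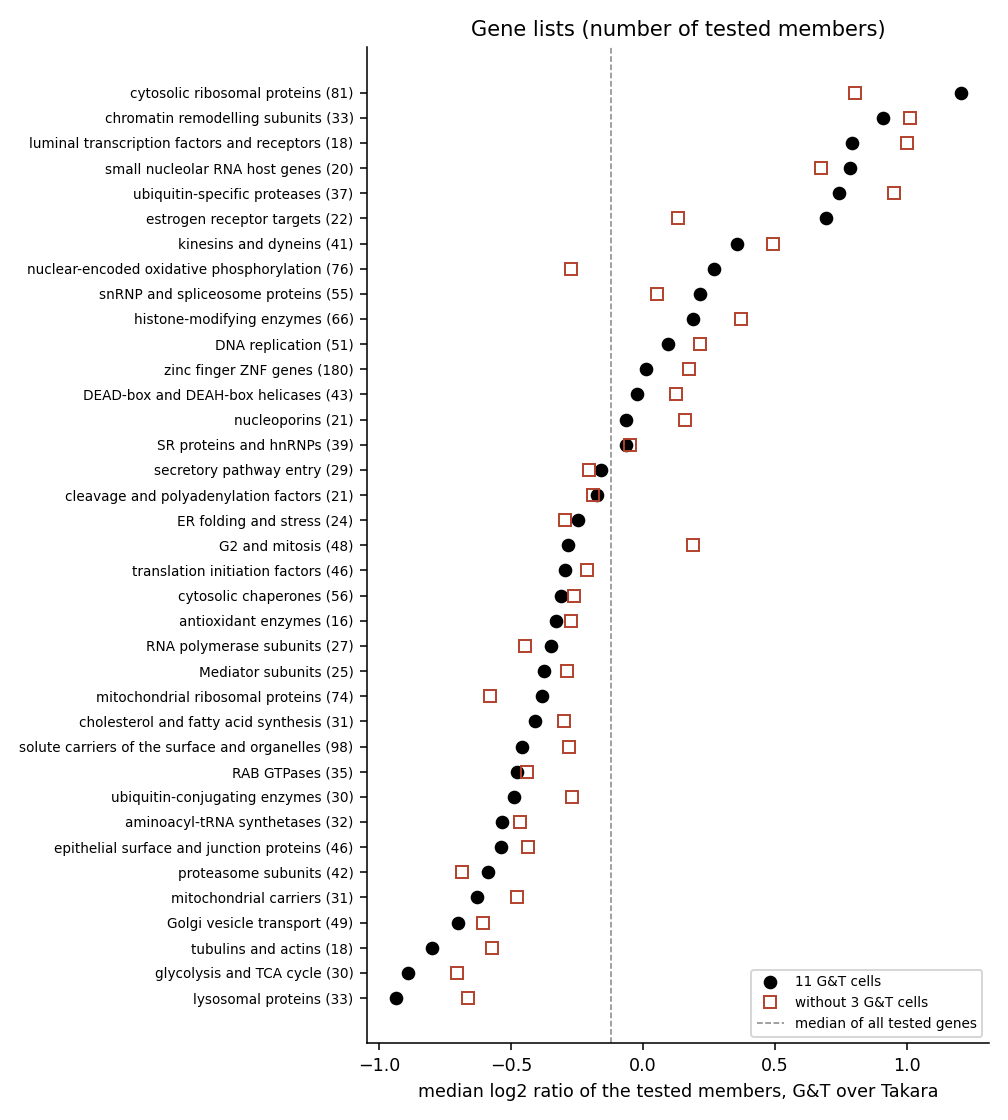
Median log2 ratio of G&T over Takara for each gene list with at least 16 members compared (x axis, number of members beside each name), with all 11 G&T cells (circles) and without the 3 that stood apart (squares), and a dashed line at the median of all genes compared. Ribosomal proteins lie at the top at 1.20 (0.80 without the 3 cells) and lysosomal proteins at the bottom at -0.94 (-0.66).

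Cytosolic ribosomal proteins, the protein part of the ribosome, were the group with the largest shift toward G&T. Of 81 members compared (85 of 86 had a read), 51 were at least 2-fold higher in G&T and 1 in Takara, against 17.3% and 20.2% of all genes. Their summed level was 70573 to 165500 CPM per G&T cell (median 96078) and 38604 to 68780 CPM per Takara cell (median 52092), with no overlap. The 3 G&T cells that stood apart had 142983 to 165500 CPM and the other 8 had 70573 to 107260 CPM, which still lay above all Takara cells. Without the 3 cells, the median ratio was 0.80, with 35 members at least 2-fold higher in G&T.

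Within the family, large-subunit and small-subunit genes had the same median (both 1.22, 48 and 32 genes). The 9 members of up to 500 bases had a median of 2.06, those of 501 to 1000 bases 1.06 (35 genes) and those over 1000 bases 1.10 (37 genes), and relative to all genes of the same length class the median of the family was 1.35. RPS29, a small-subunit protein with a transcript of 295 bases, had 651, 1206 and 4081 CPM in G&T and 242, 341 and 520 CPM in Takara, a 5.62-fold difference (5.43 to 5.82). No cell overlapped, and the 3 cells held 2790 to 4081 CPM against 651 to 2009 CPM in the other G&T cells, without which its fold was 3.48. RPS27 was 5.04-fold (4.90 to 5.20) higher in G&T, and 2.57-fold without the 3 cells. RPL39 was 5.26-fold (4.97 to 5.56) higher, and 3.54-fold without the 3 cells. RPLP0, the stalk protein and the most abundant member, had 2928, 5269 and 7379 CPM against 2226, 2810 and 4778 CPM, so its cells overlapped and its fold was 1.71 (1.69 to 1.73). Within the list, RPS3 went the other way, at a ratio of -0.85 (689 to 1562 CPM against 1633 to 2547 CPM). The 1 member at least 2-fold higher in Takara was RPL39L, a paralogue of RPL39, at 11.1 to 99.1 CPM against 26.2 to 167 CPM. Many ribosomal protein genes have pseudogene copies (32 are named for RPS29), and reads that align to several places are not in these counts.

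Chromatin remodelling subunits, which move or evict nucleosomes, were shifted toward G&T with no member 2-fold the other way. Of 33 compared, 15 were at least 2-fold higher in G&T (45.5%, against 17.3% of all genes) and 0 in Takara (against 20.2%). The median was 0.91 (-0.05 on the ERCC scale). Without the 3 cells 17 were higher in G&T, at a median of 1.01. Their summed level was 1501 to 2873 CPM per G&T cell and 869 to 1365 CPM per Takara cell, with no overlap. BPTF, the large reader subunit of the NURF complex, had 93.0, 169 and 268 CPM in G&T and 14.7, 31.5 and 48.8 CPM in Takara, a 6.27-fold difference (5.58 to 7.07). SMARCB1, a core BAF subunit, had 13.7, 33.4 and 61.6 CPM against 19.6, 66.2 and 88.9 CPM, overlapping, at a ratio of -0.83. Most of these genes are long, with 26 of 33 over 5000 bases, but relative to genes of the same length class the median was still 0.40.

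Enzymes that write and erase histone marks lay on both sides, in the way that all genes of their lengths did (37.4% of all coding genes over 5000 bases were at least 2-fold higher in G&T and 5.20% in Takara, and of those up to 3000 bases 6.57% and 32.2%). Of 66 compared, 22 were at least 2-fold higher in G&T (33.3%, against 17.3% of all genes) and 12 in Takara (18.2%, against 20.2%). The median was 0.19, and -0.73 on the ERCC scale. The 31 with transcripts over 5000 bases had a median of 0.86, with 15 higher in G&T and 1 in Takara, and the 20 of up to 3000 bases had a median of -0.82, with 2 and 7. Relative to genes of the same length class the median of the list was -0.06. KMT2A, a histone methyltransferase with a transcript of 16600 bases, had 61.2, 121 and 191 CPM in G&T and 0, 15.1 and 34.2 CPM in Takara, with no overlap and a 7.75-fold difference (6.61 to 9.13). PRMT9, an arginine methyltransferase, had up to 12.2 CPM in 7 of 11 G&T cells and 3.10 to 42.9 CPM in all Takara cells, 7.04-fold higher in Takara (4.88 to 10.5). HDAC3, a histone deacetylase of 1933 bases, was 4.29-fold higher in Takara (3.75 to 4.93). A list of 1 function could thus hold members more than 4-fold apart in both directions.

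Mediator, which links transcription factors to RNA polymerase II, held long and short members within 1 complex. Its 25 subunits had a median of -0.38, with 3 at least 2-fold higher in G&T and 9 in Takara. The 15 of up to 3000 bases had a median of -1.02 (0 and 8), and the 6 of over 5000 bases had 1.09 (3 and 0). Relative to genes of the same length class the median was -0.19. Without the 3 G&T cells that stood apart the list median was -0.29, with 3 members higher in G&T and 5 in Takara. MED13, of the kinase module, had 8.37, 87.9 and 154 CPM in G&T and 0, 10.7 and 20.6 CPM in Takara, 7.39-fold higher in G&T (6.14 to 8.96). MED16, of the tail module, had 1.04, 9.39 and 34.3 CPM in G&T and 38.2, 66.0 and 171 CPM in Takara, 6.31-fold higher in Takara (5.19 to 7.75). MED16 cells did not overlap, and MED13 cells overlapped at the low end of the G&T range. Ubiquitin-specific proteases are deubiquitinating enzymes that are often long. Of 37 compared, 14 were at least 2-fold higher in G&T (37.8%, against 17.3% of all genes) and 2 in Takara (5.41%, against 20.2%). Their median was 0.74, and -0.17 on the ERCC scale. Of the 21 over 5000 bases, 11 were higher in G&T and 0 in Takara, and relative to genes of the same length class the median of the list was 0.25.

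Luminal transcription factors and receptors, the genes that give T47D its identity, were shifted toward G&T, most where their transcripts are long. Of 18 compared, 8 were at least 2-fold higher in G&T (44.4%, against 17.3% of all genes) and 1 in Takara (5.56%, against 20.2%). The median was 0.79 (-0.13 on the ERCC scale), and 0.64 relative to genes of the same length class. The 9 over 5000 bases had a median of 1.40 and the 5 of 3001 to 5000 bases 0.41. The 4 of up to 3000 bases had one of -0.44. TRPS1, a GATA-type repressor with a transcript of 9964 bases, had 366, 883 and 1648 CPM in G&T and 89.3, 237 and 297 CPM in Takara, with no overlap and a 4.05-fold difference (3.87 to 4.25). ESR1, the estrogen receptor, was 3.21-fold higher in G&T (2.97 to 3.48), with overlapping cells of 49.2 to 692 CPM and 15.5 to 151 CPM. PGR, the progesterone receptor, ranged from 12.4 to 1086 CPM in G&T and from 48.6 to 448 CPM in Takara, with wide overlap. GATA3, which specifies luminal fate, differed little, at 357, 743 and 1727 CPM against 230, 557 and 1315 CPM (ratio 0.41). SPDEF, of 1910 bases, was the 1 member at least 2-fold higher in Takara, at 62.8, 193 and 334 CPM against 189, 374 and 772 CPM, but its ratio of -1.16 was -0.97 without the 3 cells that stood apart.

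Among estrogen receptor targets 9 of 22 were at least 2-fold higher in G&T (40.9%, against 17.3% of all genes) and 5 in Takara (22.7%, against 20.2%). The median was 0.69, but 0.13 without the 3 G&T cells and -0.25 on the ERCC scale. TFF3, a secreted trefoil peptide of 867 bases, ranged from 115 to 12935 CPM in G&T and from 204 to 3118 CPM in Takara, and its ratio of 1.44 was 0.61 without the 3 cells. AGR2, a secretory-pathway protein outside that list and among the 4 genes with the largest gain in CPM in G&T, had cells of 3836 to 13864 CPM in G&T and 1351 to 5065 CPM in Takara, which overlapped.

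Enzymes of central carbon metabolism were shifted toward Takara. Of 30 glycolysis and TCA cycle genes, 12 were at least 2-fold higher in Takara and 3 in G&T. Among all genes the shares were 20.2% and 17.3%. The median of the list was -0.89 (-0.71 without the 3 cells), and -0.45 relative to genes of the same length class. Their summed level was 4786 to 9528 CPM per G&T cell and 13711 to 17240 CPM per Takara cell, with no overlap. LDHA (above) was among the 10 coding genes with the largest Takara ratios and no overlap between cells. ENO1, enolase and the most abundant member, had 571, 1101 and 1981 CPM against 1793, 2155 and 3950 CPM, a 2.03-fold difference (1.98 to 2.07) with a small overlap, and 1.92-fold without the 3 cells. DLST, a subunit of the oxoglutarate dehydrogenase complex, ran the other way at 6.22, 61.7 and 103 CPM against 0, 2.81 and 8.54 CPM, 17.5-fold higher in G&T (12.6 to 24.9).

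Lysosomal proteins had the lowest median of any list, and one of -0.63 relative to genes of the same length class. Of 33 compared, 14 were at least 2-fold higher in Takara (42.4%, against 20.2% of all genes) and 2 in G&T (6.06%, against 17.3%). Their summed level of 1735 to 4157 CPM per G&T cell and 6206 to 10668 CPM per Takara cell did not overlap, and the median was -0.66 without the 3 cells. PPT1, palmitoyl-protein thioesterase, had 34.5, 73.7 and 158 CPM in G&T and 244, 375 and 1112 CPM in Takara, 6.30-fold higher in Takara (5.82 to 6.83). CTSB, cathepsin B, was 3.92-fold higher in Takara (3.72 to 4.14). The 2 exceptions were LAMP1, a membrane glycoprotein of lysosomes, at 19.9 to 93.0 CPM in G&T and 0.791 to 25.1 CPM in Takara, and CTSZ, cathepsin Z, at 11.4 to 115 CPM and 0 to 21.7 CPM. For both, G&T cells and Takara cells overlapped in range.

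Other lists of secretion and protein turnover are set here against all genes, of which 17.3% were at least 2-fold higher in G&T and 20.2% in Takara. Secretory pathway entry had a median of -0.16, with 0 of 29 higher in G&T and 5 in Takara, and ER folding and stress genes had 6 of 24 and 5. Golgi vesicle transport had 18 of 49 members at least 2-fold higher in Takara (36.7%) and 9 in G&T (18.4%). Its 14 members over 5000 bases had a median of 0.90 and the 19 of up to 3000 bases one of -0.93. The 16 of 3001 to 5000 bases had a median of -1.04, against -0.07 for all coding genes of that length. Relative to genes of the same length class the median of the list was -0.42. ARF1, the GTPase that recruits the COPI coat, had 184, 524 and 766 CPM in G&T and 1152, 1259 and 1773 CPM in Takara, with no overlap, while GOLGA4, a golgin of 7806 bases, was 3.49-fold higher in G&T (3.27 to 3.72). Proteasome subunits had 13 of 42 higher in Takara (31.0%) and 3 in G&T (7.14%). Their median was -0.59, and -0.39 relative to genes of the same length class. PSMD2, the most abundant of them, had 473, 946 and 1494 CPM against 1587, 2056 and 2539 CPM (2.06-fold higher in Takara, and 1.84-fold without the 3 cells), and PSME4, an activator with a transcript of 7250 bases, was 3.02-fold higher in G&T (2.64 to 3.47). Of 32 aminoacyl-tRNA synthetases, which charge tRNAs, 9 were higher in Takara (28.1%) and 0 in G&T, and 4 and 0 without the 3 cells. Relative to genes of the same length class their median was -0.07. P4HB, protein disulfide isomerase of the ER folding list, had 112, 316 and 506 CPM against 814, 1045 and 1408 CPM.

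Cytoskeletal genes gave some of the largest absolute differences. ACTB, cytoplasmic actin, had 2877, 5613 and 8449 CPM in G&T and 11538, 15764 and 20156 CPM in Takara, with no overlap and a 3.08-fold difference (3.05 to 3.11). Tubulins and actins summed to 4402 to 15904 CPM per G&T cell and 16759 to 30505 CPM per Takara cell, also without overlap. Of 18 compared, 8 were at least 2-fold higher in Takara (44.4%, against 20.2% of all genes) and 3 in G&T (16.7%, against 17.3%). Relative to genes of the same length class the median of this list was -0.07. KRT19, the luminal keratin, had 1187, 2564 and 5001 CPM against 4848, 7696 and 10558 CPM, which overlapped only slightly. KRT18 was 2.71-fold higher in Takara (2.65 to 2.78), whereas KRT8, its partner in the same filaments, was 1.24-fold higher (1.22 to 1.25). TMSB4X, an actin-binding peptide of 622 bases, went the other way at 4792, 6754 and 30036 CPM against 2530, 5521 and 8062 CPM. Its 3 highest cells were again the 3 that stood apart (14904 to 30036 CPM), and without them its ratio was 0.15 in place of 1.02.

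The markers used to sort the cells moved in opposite directions. EPCAM, of 1547 bases, had 30.1, 152 and 302 CPM in G&T and 348, 470 and 676 CPM in Takara, and no cell overlapped. ITGA6, which encodes CD49f and has 5816 bases, had 4.18, 27.0 and 114 CPM against 0, 8.26 and 45.2 CPM. Its G&T and Takara cells overlapped. Of 46 epithelial surface and junction proteins, 16 were at least 2-fold higher in Takara (34.8%, against 20.2% of all genes) and 4 in G&T (8.70%, against 17.3%). Their median was -0.54, and -0.44 relative to genes of the same length class.

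Genes of G2 and mitosis are read at levels that depend on each cell's stage, and their ratios followed length as those of all genes did. The list of 48 had a median of -0.28 (0.19 without the 3 G&T cells that stood apart), with 7 at least 2-fold higher in G&T (14.6%, against 17.3% of all genes) and 9 in Takara (18.8%, against 20.2%). Relative to genes of the same length class the median was -0.06. All 7 were among the 12 members over 5000 bases (median 1.13), and the 21 of up to 3000 bases had a median of -0.79, with 7 higher in Takara and 0 in G&T. ASPM, a spindle-pole protein of 10863 bases, had 2.98, 362 and 1024 CPM in G&T and 0, 12.2 and 177 CPM in Takara. MKI67, the Ki-67 antigen of 12716 bases, was 4.32-fold higher in G&T (4.04 to 4.62). CDC20, an activator of the anaphase-promoting complex with 1649 bases, had 4.29, 43.5 and 208 CPM in G&T and 0, 674 and 1648 CPM in Takara, 11.8-fold higher in Takara (10.8 to 12.8). CCNB1, cyclin B1, was 4.09-fold higher in Takara (3.91 to 4.28).

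Both ends of this list move with the cell cycle, so their ratio within a cell was also taken. The summed level of the 12 long members over that of the 21 short ones was 0.163 to 1.39 per G&T cell (median 0.648) and 0.130 to 0.709 per Takara cell (median 0.202). Most G&T cells lay above most Takara cells, but the ranges overlapped. The stages of the kept cells were not matched between protocols, and their part in the ratio of any single mitotic gene was not tested.

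**Figure D5:**
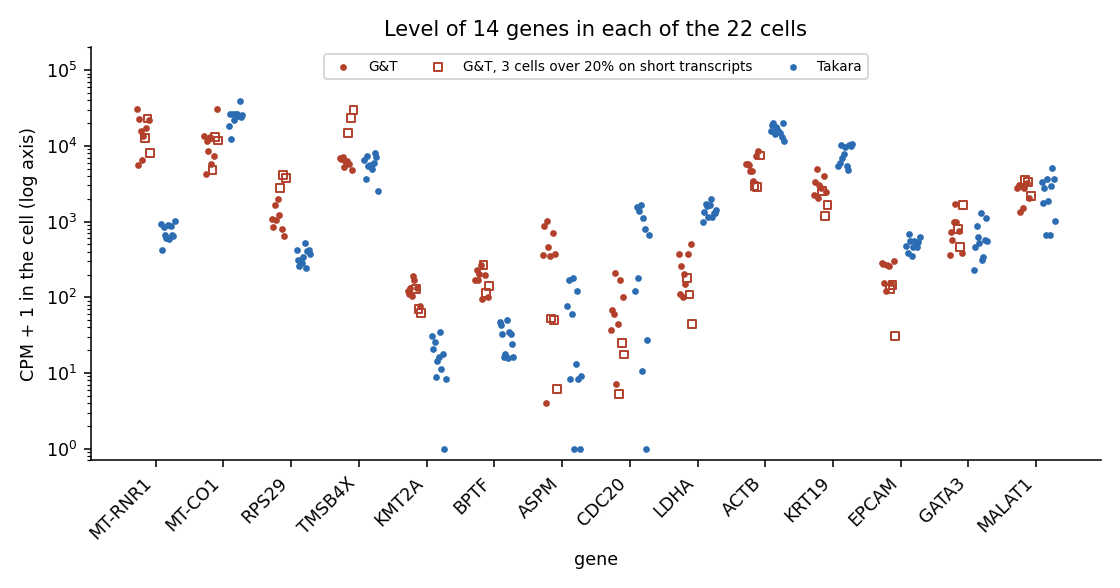
Level in each cell (CPM plus 1, log axis) of 14 genes named in the text, 1 point per cell, 11 G&T cells (open squares for the 3 that stood apart) and 11 Takara cells. MT-RNR1 separates the protocols most, LDHA, ACTB and EPCAM lie higher in every Takara cell, and MALAT1 overlaps throughout.

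Mitochondrial transcripts gave the largest single-gene difference in CPM. The 2 ribosomal RNAs of the mitochondrial genome, which carry short A tails, had no overlap between protocols. MT-RNR1, the 12S RNA (M, 648 to 1601), had 5586, 15946 and 30410 CPM in G&T and 417, 663 and 1002 CPM in Takara, 21.6-fold higher in G&T (21.2 to 22.1). MT-RNR2, the 16S RNA (M, 1671 to 3229), had 39312, 89050 and 121766 CPM against 15987, 19091 and 28700 CPM, 3.65-fold higher (3.64 to 3.67). Together they took 9.49% ± 3.30 (SD, n = 11 cells) of reads on genes in G&T and 2.18% ± 0.450 in Takara.

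The 13 mitochondrial mRNAs did not follow the rRNAs. Their median ratio was 0.02, with 3 at least 2-fold higher in G&T and 1 in Takara, against 17.3% and 20.2% of all genes. Without the 3 G&T cells that stood apart the median was -0.14, with 0 and 2. MT-ND3 and MT-ND4L, short subunits of complex I, had ratios of 1.37 and 1.12, and MT-ND1 one of 1.03, which were 0.97, 0.88 and 0.88 without the 3 cells. MT-ND3 had 738, 1110 and 4032 CPM against 341, 729 and 1031 CPM, which overlapped. MT-CO1, the catalytic subunit of cytochrome oxidase, had 4314, 11434 and 30802 CPM in G&T and 12451, 25872 and 39132 CPM in Takara, a ratio of -1.13 with overlapping cells (-1.03 without the 3).

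Nuclear genes of oxidative phosphorylation had a median of 0.27, with 11 of 76 at least 2-fold higher in G&T (14.5%, against 17.3% of all genes) and 6 in Takara (7.89%, against 20.2%). Without the 3 G&T cells the median was -0.27, with 1 and 7, and on the ERCC scale -0.72. ATP5F1E, the epsilon subunit of ATP synthase, had 735, 942 and 4499 CPM in G&T and 392, 547 and 761 CPM in Takara, and 2600 to 4499 CPM in the 3 cells. Its ratio was 0.69 without them and 1.68 with them. ATP5F1B, the catalytic beta subunit of the same enzyme, had 763, 1682 and 2403 CPM against 3902, 4375 and 5768 CPM, 3.03-fold higher in Takara (2.98 to 3.09), with no overlap.

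Beyond protein-coding genes, processed pseudogenes, copies of spliced mRNAs in the genome, took 0.385% ± 0.0634 of reads in G&T and 0.185% ± 0.0175 in Takara, and the ranges of 0.286% to 0.474% and 0.157% to 0.219% did not overlap. Of 40 above the floor, 15 were at least 2-fold higher in G&T and 1 in Takara, against 17.3% and 20.2% of all genes. Their median was 0.71. Those named for a ribosomal protein gene had a median of 0.96 (15 genes) and the others 0.62 (25 genes). The largest ratio was that of RPL41P5 (chromosome 12, 93083598 to 93083675), with 63.8, 108 and 360 CPM in G&T and 2.42, 5.61 and 13.4 CPM in Takara, 25.3-fold higher in G&T (20.1 to 32.3). Without the 3 cells that stood apart its ratio was 3.76 in place of 4.47.

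Whether such reads come from the copy or from the parent gene turns on how alike the sequences are. RPL41 encodes the smallest ribosomal protein, and its coding sequence is shown with 3 annotated copies that had reads (all from GRCh38, gene models of GENCODE release 44), each 5' to 3' on its own strand, with capitals for the start codon and, where the gene model ends on it, the stop codon. The coding sequence is spliced from the gene at chr12:56116590-56117967 (plus strand), and the copies are RPL41P5 at chr12:93083598-93083675 (minus strand), RPL41P1 at chr20:21755270-21755350 (plus strand) and ENSG00000279483 at chr7:137513859-137513933 (plus strand).
RPL41 coding sequence: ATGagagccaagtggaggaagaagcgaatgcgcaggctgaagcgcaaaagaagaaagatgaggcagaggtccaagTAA
RPL41P5: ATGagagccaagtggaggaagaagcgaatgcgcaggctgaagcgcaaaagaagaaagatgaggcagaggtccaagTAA
RPL41P1: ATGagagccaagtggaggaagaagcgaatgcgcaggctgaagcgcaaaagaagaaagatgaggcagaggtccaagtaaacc
ENSG00000279483: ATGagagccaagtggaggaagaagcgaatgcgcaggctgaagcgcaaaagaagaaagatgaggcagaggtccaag
Over the aligned 78, 78 and 75 bases the 3 copies (RPL41P5, RPL41P1 and ENSG00000279483) held 0 differences from RPL41. A read that lies within these bases fits all 4 places equally, so the counts of each copy come from reads that reach past it or were placed by other bases, and they are uncertain. RPL41 itself had 1103, 1695 and 3236 CPM in G&T and 507, 657 and 790 CPM in Takara, 3.29-fold higher (3.20 to 3.38). RPL41P1 was 3.98-fold higher in G&T (3.49 to 4.55), and ENSG00000279483 4.73-fold (4.37 to 5.13). All of these were higher in every G&T cell than in any Takara cell. Without the 3 cells that stood apart the folds were 2.54 for RPL41, 15.5 for RPL41P5, 3.57 for RPL41P1 and 2.42 for ENSG00000279483.

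Long noncoding RNAs took 1.28% ± 0.162 of reads in G&T and 0.972% ± 0.162 in Takara. Of 142 above the floor, 28 were at least 2-fold higher in G&T and 10 in Takara, against 17.3% and 20.2% of all genes. Their median was 0.21. Small nucleolar RNA host genes, whose introns hold snoRNAs and whose spliced RNAs are short, had 8 of 20 higher in G&T and 0 in Takara, and 6 and 0 without the 3 cells (median 0.78, and -0.19 on the ERCC scale). SNHG5 had 189, 296 and 533 CPM in G&T and 40.2, 80.5 and 175 CPM in Takara, with no overlap. NEAT1, the scaffold RNA of paraspeckles, had 65.7, 141 and 548 CPM against 12.9, 47.5 and 67.1 CPM, 4.84-fold higher in G&T (4.39 to 5.36). MALAT1, a nuclear RNA from a neighbouring locus, had 1326, 2808 and 3514 CPM against 665, 2782 and 5155 CPM, at a ratio of 0.03. Both overlap other annotated genes, so their counts are uncertain.

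Genes detected per cell were similar in number, and those detected in any cell were more in G&T. A mean of 11348 ± 991 genes had a read in a G&T cell and 11178 ± 463 in a Takara cell, while 22428 and 18015 genes had a read in any of the 11 cells. Of the genes read only in G&T (6742), 5091 were in 1 cell, and of those read only in Takara (2329), 1776 were. Counting only genes read in at least 3 cells of a protocol, the totals were 13327 and 13048. Among genes read in any cell, the counts were 208 against 72 snRNA genes, 121 against 46 miRNA genes, 263 against 89 genes of the class misc_RNA and 39 against 9 of 410 olfactory receptors, and 14002 against 12755 nuclear protein-coding genes. Most of the snRNA and miRNA genes in G&T were read in 1 cell only (171 of 208 and 91 of 121), and in at least 3 cells the counts were 6 against 4 snRNA, 8 against 5 miRNA and 25 against 8 misc_RNA genes. In the other direction, 6606 genes were read in every Takara cell and 5574 in every G&T cell, and 4875 were read in all 22. Takara cells were deeper on average (1065150 against 863661 reads on genes), and the 3 G&T cells that stood apart had the fewest genes of their protocol. The part of depth and of these cells in the counts over every cell was not tested.

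Genes whose detection differed most were few. Of all genes, 152 were read in at least 6 more G&T cells than Takara cells and 201 in at least 6 more Takara cells. The coding genes among them had a median length of 4702 bases (80 genes) and 2230 bases (140 genes). LINC03073, a noncoding RNA that overlaps another on the opposite strand, was read in 11 G&T cells at 1.34 to 13.9 CPM and in 0 Takara cells, and was at least 18.9-fold higher in G&T by a limit of 3 reads over the pooled Takara cells. ZCCHC2, a zinc-finger protein, was read in 11 and 3 cells, and PAQR7, a membrane progestin receptor, in 11 and 4. In Takara, IDNK, a gluconokinase, and RTN2, a reticulon of the endoplasmic reticulum, were read in 11 cells against 2 in G&T, and RRP9, a U3 snoRNP protein, in 11 against 3. RRP9 had 7.46 to 68.4 CPM in Takara cells and at most 11.2 CPM in a G&T cell.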

How the data were processed

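Single-cell libraries were sequenced on a MiSeq by the authors, who trimmed reads in 2 rounds with Trim Galore, checked them with FastQC and aligned them to GRCh38 with STAR. The deposited values are raw counts of uniquely mapped reads per gene and cell, 1 table per protocol, unfiltered and without molecular identifiers. The annotation release and strand setting are not given in the sources used here. Each table has rows for 60279 genes, 92 ERCC spikes and 4 kinds of read that STAR left unassigned.

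Cells were kept with at least 1000 genes, a library of at least 600000 reads on genes and spike-ins, at most 30% mitochondrial and at most 25% ERCC reads. Cells of 1 plate are not replicates of a protocol, so no count model was fitted and no p-value is given. A gene was called at 2-fold on pooled CPM, with a floor of 10 CPM (mean of both protocols) and 1 CPM added for log2 ratios. Folds are ratios of pooled CPM with exact 95% Poisson intervals. Depth was 658154 to 1287910 reads on genes per cell. Detection means at least 1 read.

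Gene classes, lengths (canonical transcript) and coordinates were taken from GENCODE release 44, which matched 56104 of the listed genes and left 4175 without annotation. The canonical transcript need not be the one expressed. The members, gene lists and tests were chosen with earlier results of these data known. Genes are named by a rule. It takes the 10 coding and 4 other genes with the largest ratio in each direction among those whose cells do not overlap, the 4 largest differences in CPM, the 4 most one-sided in detection, the most abundant and most extreme members of each list, the 13 mRNAs and 2 rRNAs of the mitochondrial genome, and the sorting markers. Other list members (LAMP1, CTSB, HDAC3, MKI67, CCNB1, TRPS1, ESR1, PGR, TFF3, KRT18, RPS3, RPS27, RPL39, SNHG5 and RPL41 among them) and RPL41P1 were named after their values were seen. Some genes that the rule takes are not reported here.

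Alternatives covered scaling (TMM factors from edgeR 4.0.16, ERCC reads, no mitochondrial reads), pooling, pseudocount, floor, fold, the cells kept and depth (thinning to 658154 reads). The steps were tested on simulated data with seed 11. R was version 4.3.3 and Python 3.11.15, the latter with matplotlib 3.10.9, scipy 1.17.1, numpy 2.4.6 and pandas 2.3.3.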

Additional observations from a re-analysis of the deposited data

How the results depend on the processing

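No test was possible between protocols with 1 plate and 1 run each, and intervals cover counting error only. No paired analysis was possible because the result comes from no test and the cell numbers of the protocols mark no shared culture, plate or day. Scaling mattered most. Per ERCC read, 315 genes were at least 2-fold higher in G&T and 4410 in Takara, the medians for transcripts of up to 500, 1501 to 2500 and over 7000 bases were -0.0036, -1.75 and -0.041, and 14 of 44 list medians changed sign. TMM factors moved no list median by more than the spread between cells. With a floor of 1 CPM, 2929 genes were higher in G&T, and with a floor of 50 CPM 488 in G&T and 862 in Takara. Without a floor 3766 were higher in G&T, and the median of 1501 to 2500 bases was -0.39. At 1.5-fold the counts were 2307 in G&T and 2837 in Takara, and at 4-fold 301 and 207, so that the protocol with more genes past the limit changed with the limit. Leaving out 1 cell at a time gave 1386 to 1526 genes higher in G&T and 1575 to 1801 in Takara, medians of 0.69 to 1.05 for up to 500 bases, -0.82 to -0.74 for 1501 to 2500 bases and 0.87 to 0.99 for over 7000 bases, and no list median moved by more than the spread between cells.

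Leaving out G&T replicates 8, 10 and 13, or the 5 cells named below, was chosen after seeing the data. Without G&T replicates 8, 10 and 13, the median of transcripts up to 500 bases was 0.10, and 2 genes were read in every G&T cell and no Takara cell (1 with all kept cells and 0 with all deposited cells). Without the 5 G&T cells with over 12% of reads on no feature (replicates 2, 3, 4, 7 and 9), 3 genes were read in every Takara cell and no G&T cell (0 with all kept cells, and an expected 0.0029 at equal depth). IFI27, an interferon-induced gene named as the most extreme member of its list toward G&T, had a ratio of 2.52 that rested on G&T replicate 2 alone. It was -1.36 without that cell and -2.67 without the 5 cells, and leaving out 1 cell at a time gave -1.36 to 3.48. Counting genes only when read in at least 3 cells gave 13327 in G&T in place of 22428. The share of reads on nuclear protein-coding genes was 81.7% in G&T and 88.5% in Takara, 97.4% and 98.3% without mitochondrial reads, and 86.0% in Takara with all deposited cells.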

Other observations

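Histone genes, which the account above leaves out, lay on both sides. Of 10 polyadenylated variants compared, 4 were at least 2-fold higher in G&T and 1 in Takara (median ratio 0.39). Of 9 replication-dependent histones the counts were 2 and 2 (median 0.04). Among all genes the shares were 17.3% in G&T and 20.2% in Takara, close to the 22.2% each way of the replication-dependent histones. H3-3A, one of the genes for the polyadenylated histone H3.3, had 699, 974 and 2505 CPM (lowest, median and highest cell) in G&T and 338, 409 and 574 CPM in Takara, with no overlap. H3-3B, which encodes the same protein from a transcript of 2705 bases, lay the other way at 299, 729 and 1506 CPM against 551, 1567 and 2619 CPM. The pair was thus 3.00-fold (2.90 to 3.11) higher in G&T and 2.26-fold (2.19 to 2.32) higher in Takara, by pooled CPM with 95% Poisson intervals. Without the 3 G&T cells that stood apart, H3-3A was 2.19-fold higher in G&T and H3-3B 1.93-fold higher in Takara. Both share some exon bases with genes on the other strand. Replication-dependent histones, whose mRNAs end in a stem-loop in place of a poly(A) tail, had reads for 50 of 64 genes in G&T and 38 in Takara, but 9 passed the abundance floor. Among these H4C3 was 9.95-fold (8.89 to 11.2) higher in Takara, with 7 of 11 G&T cells at up to 85.1 CPM and Takara cells from 20.8 to 1601 CPM, and H1-2 was 2.13-fold (1.81 to 2.52) higher in G&T. The ratio of H1-2 was 1.05, or 0.71 without the 3 cells and 1.94 with all deposited cells. Cell cycle stage moves with these genes, and its part was not tested.

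DDX39B, an RNA helicase of mRNA export, had the largest ratio of any gene named here at 4.61, though its cells overlapped narrowly. It had 12.4, 81.8 and 186 CPM in G&T and 0, 0.808 and 12.6 CPM in Takara. Its locus shares exons with a readthrough gene on the same strand, so reads on both are not counted and its value is uncertain. PABPC1, the poly(A)-binding protein, also lay higher in G&T, at 438, 1084 and 2227 CPM against 188, 334 and 399 CPM with no overlap. The small antioxidant list was the reverse of such cases. It had 0 of 16 members at least 2-fold apart in either direction, against 37.5% of all genes.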
